A study of Mus musculus with 8 samples.

Results

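Measured here are 10 genes of the cytotoxic lymphocyte granule and its cytokine arm, among the 32285 genes counted in single CD45+ cells of mouse mammary tumors: the granzymes *Gzma*, *Gzmb*, *Gzmc*, *Gzmd*, *Gzme*, *Gzmf* and *Gzmk*, the pore protein gene *Prf1*, the granule membrane protein gene *Nkg7*, and *Ifng*. They were taken by symbol, whatever their level, and followed through 4 lymphocyte classes and 3 tumor lines. All tumors were grown from E0771 cells, a mesenchymal-like mouse line of triple-negative breast cancer, in the mammary gland and harvested 18 days after implantation. The parental group (2 mice, labelled naive E0771 cells) carried the starting line, and the E0771-Res1 and E0771-Res2 groups (3 mice each) carried cells taken from tumors that had relapsed after paclitaxel and anti-PD-1 therapy, so each resistant group stands for 1 derived line. The study's figures give C57BL/6 mice as hosts of E0771 tumors, the labels name no strain, treatment, age or sex of the mice sequenced, and a further parental mouse was not analysed here. Live CD45+ cells of each mouse were labeled with oligonucleotide tags, pooled, and sequenced from the 3′ end of their transcripts.

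Cytotoxic T cells and natural killer (NK) cells kill by emptying granules against a target cell. Perforin opens the target's membrane, and granzymes, a family of serine proteases, enter and cut proteins inside, with granzyme B the best known trigger of apoptosis. Interferon gamma, released by the same lymphocytes, acts on macrophages and tumor cells and raises antigen presentation.

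All 10 genes were found in the GENCODE M21 annotation of GRCm38 as protein-coding genes. *Gzmc*, *Gzmd*, *Gzme* and *Gzmf*, granzymes found in rodents, are neighbours of *Gzmb* on the minus strand of chromosome 14: *Gzme* at chr14:56117626-56120625, *Gzmd* at chr14:56129556-56132608, *Gzmf* at chr14:56205263-56211417, *Gzmc* at chr14:56231441-56234656 and *Gzmb* at chr14:56258838-56262260. With *Gzmg* and *Gzmn* between them, this makes 7 granzyme genes within 144635 bases. *Gzma* (chr13:113093825-113100981) and *Gzmk* (chr13:113171608-113225908) lie near each other on the minus strand of chromosome 13. *Prf1* (chr10:61297833-61304680) and *Ifng* (chr10:118441046-118445892) lie on the plus strand of chromosome 10, and *Nkg7* (chr7:43437073-43438249) on that of chromosome 7.

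The promoters of the neighbouring granzymes are shown because these genes were in part counted in the same few cells and are hard to tell apart by sequence. In the RefSeq sequences of GRCm38.p6, aligned windows of 90 bases, which begin 89 to 114 bases before the RefSeq start of each gene, differed at 12 positions among *Gzmc*, *Gzmd*, *Gzme* and *Gzmf*, which are in capitals, and were alike in all 4 at the other 78. RefSeq and GENCODE place some starts differently, and the *Gzmd* window runs into the gene as GENCODE gives it. The windows read 5′ to 3′ on the minus strand:
Gzmc (chr14:56234657-56234746): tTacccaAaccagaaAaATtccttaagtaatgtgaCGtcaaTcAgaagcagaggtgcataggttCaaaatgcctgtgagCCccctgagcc
Gzmd (chr14:56132597-56132686): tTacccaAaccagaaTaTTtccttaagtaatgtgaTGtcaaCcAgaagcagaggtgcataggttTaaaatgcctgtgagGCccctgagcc
Gzme (chr14:56120630-56120719): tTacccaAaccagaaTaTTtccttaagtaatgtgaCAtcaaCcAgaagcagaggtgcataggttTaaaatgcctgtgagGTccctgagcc
Gzmf (chr14:56211432-56211521): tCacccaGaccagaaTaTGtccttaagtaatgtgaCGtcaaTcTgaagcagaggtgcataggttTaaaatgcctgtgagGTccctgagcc
*Gzmd* and *Gzme* were the closest pair, with 87 of 90 bases alike (96.7%), and *Gzmc* and *Gzmf* the most distant, with 81 (90%). The longest stretch shared by all 4, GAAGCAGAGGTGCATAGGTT, occurred on either strand in 5 of the 32851 mouse promoters of 300 bases in the same table (0.0152%), which were those of these 4 genes and *Gzmg*. Such matches are a description of letters and not of a factor bound there.

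The likeness reaches into the transcripts that were counted. Of the 50-base stretches in the last 400 bases of the *Gzmd* transcript, 13.1% also occurred in another granzyme transcript, against 9.97% for *Gzme*, 9.12% for *Gzmf* and none for the other members. Unique molecular identifiers (UMIs) of *Gzmd*, *Gzme* and *Gzmf* may therefore be split or exchanged among genes that share such stretches, and the levels of these 3 are uncertain to that extent.

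The filters named in the study's methods (500 to 6000 genes per cell and under 10% mitochondrial UMIs) kept 10605 of 11430 cells, with 5036667 to 18894504 UMIs per mouse and a median of 5589 to 8160 UMIs per cell in each mouse. The 3 E0771-Res2 mice had the lowest medians, at 5589 to 7001, against 7631 to 8160 in the others. Marker gates that used none of the 10 genes found 840 lymphocytes (7.92% of kept cells): 198 CD8 T cells (9 to 51 per mouse), 168 Foxp3+ T cells (6 to 44), 253 other T cells (11 to 49) and 221 NK cells (15 to 50). Doublets were not called, but every gated lymphocyte had to hold under 1% of its UMIs in 8 myeloid genes. The T cell receptor gene *Trac*, not used in a gate, was detected in 93.9% of CD8 T, 92.3% of Foxp3+ T, 62.5% of other T and 14.5% of NK cells, and the NK receptor gene *Klra8* in 33.9% of NK and 1.01% of CD8 T cells. The other T gate held cells of mixed kind: *Cd4* was detected in 37.2% of its cells and the gamma-delta T cell gene *Trdc* in 10.3%. The sum of 6 NK markers, among them *Tyrobp* and *Fcer1g*, ran from 3227 to 4426 CPM per mouse (counts per 1000000 UMIs, here of all UMIs). It was 1076 to 2510 in CD8 T, 914 to 2448 in Foxp3+ T and 5342 to 7522 in NK cells. The 3 NK gate genes alone summed to 19.4 to 549 CPM in other T, 212 to 671 in CD8 T and 834 to 1385 in NK cells. By those genes the other T range overlapped that of CD8 T cells, while by the 6-marker sum it lay above every CD8 T and Foxp3+ T value. The 8 myeloid gate genes summed to 2516 to 5887 CPM in other T, 1070 to 3602 in CD8 T, 1629 to 4529 in Foxp3+ T and 1720 to 2930 in NK cells. Whether the other T gate held NK-like cells, or whether myeloid RNA raised its 6-marker sum, was not tested. The sum of 5 regulatory T cell markers was 835 to 2101 CPM in other T, 537 to 775 in CD8 T and 3815 to 5336 in Foxp3+ T cells. Whether the other T gate held regulatory T cells without a counted *Foxp3* UMI was not tested, which limits comparisons of these 2 classes. The part of all such cells in the values of other T cells was not tested.

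The levels of the members are given as CPM of a class and mouse once mitochondrial, ribosomal and Gm-prefixed genes were dropped. Tests between classes used UMI counts summed per mouse and class (edgeR quasi-likelihood test with mouse as a block, Benjamini-Hochberg adjusted over 6124 genes). Of the 10 members, 7 passed the filter on low counts, and *Gzmd*, *Gzmf* and *Gzmk* did not. Between NK and CD8 T cells, 4 of the 7 were higher in NK cells and none lower, where 7.61% of all genes tested were called and 4.34% were called higher. Shares of positive cells are the expected percent of cells with at least 1 UMI once each cell is thinned to 2000 UMIs, and were compared by an exact sign-flip permutation test over the 8 mice (two-sided, smallest possible p = 0.0078125, adjusted over 60 tests).

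The granzymes A, B and C had higher median levels in NK cells than in any T cell class. The ranges over mice overlapped with CD8 T cells for *Gzmb* and with other T cells for *Gzmc*. *Gzma*, a tryptase of the granule, had a lowest level of 4647 CPM, a median of 8120.2 and a highest of 17284 over the 8 mice in NK cells. In CD8 T cells the same 3 values were 20.1, 114 and 1247 CPM, in Foxp3+ T cells 0, 34.2 and 535, and in other T cells 44.4, 531 and 2206. The NK range thus lay above every T cell value. The log2 fold change of NK over CD8 T cells was 5.73 ± 0.57 (SE, approximated from the F statistic, as throughout; adjusted p = 1.3e-09), and *Gzma* was detected in 75.9% ± 10.4 (SD, n = 8) of NK cells against 8.03% ± 3.58 of CD8 T cells.

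*Gzmb*, the apoptosis-inducing granzyme, ran from 2832 CPM through a median of 4453 to 5961 in NK cells. CD8 T cells had 551, 878 and 2938 CPM, Foxp3+ T cells 362, 759 and 1049.9, and other T cells 178, 1033 and 1478, so that the 3 T cell classes overlapped widely. NK cells exceeded CD8 T cells by 2.23 ± 0.28 on the log2 scale (adjusted p = 2.23e-07), while CD8 T cells differed from Foxp3+ T cells by 0.39 ± 0.29 (adjusted p = 0.458) and from other T cells by 0.22 ± 0.28 (adjusted p = 0.67). The share of *Gzmb*-positive cells was 42.7% ± 9.74 in CD8 T and 41.0% ± 12.2 in Foxp3+ T cells (SD, n = 8), a difference of 1.71 points ± 12.4 that was positive in 3 of 8 mice (exact permutation test, adjusted p = 0.745). The share in Foxp3+ T cells, regulatory T cells by their marker, exceeded that of other T cells by 12.4 points, in 8 of 8 mice (exact permutation test, adjusted p = 0.0162, and 0.0605 without thinning). The level did not show this, with a *Gzmb* log2 fold change of Foxp3+ T over other T cells of -0.17 ± 0.29 (adjusted p = 0.838). The CD8 T share exceeded that of other T cells by 14.1 points in 7 of 8 mice (exact permutation test, adjusted p = 0.0426), a call that was lost under 8 of 10 alternatives.

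*Gzmc*, a rodent granzyme of activated killer cells, held 3153, 6957 and 10315 CPM (lowest, median and highest) in NK cells and 24.2, 42.7 and 369 in CD8 T cells. Other T cells had a median between these, at 12.7, 1687 and 9078 CPM. The lowest of these, parental replicate 1, stood apart from the other 7 mice, which were at 185 or above. In other T cells 1 cell of an E0771-Res1 mouse held 1492 of the 4708 UMIs of the class (31.7%). NK cells exceeded CD8 T cells by 6.81 ± 0.50 on the log2 scale (adjusted p = 3.95e-13) and other T cells by 2.47 (adjusted p = 1.74e-05), and the log2 fold change of CD8 T over other T cells was -4.34 ± 0.49 (adjusted p = 1.25e-07). The share of positive cells was 35.5% ± 7.84 in NK, 14.5% ± 8.76 in other T, 6.48% ± 4.10 in CD8 T and 4.47% ± 3.20 in Foxp3+ T cells.

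Background from free RNA was read in 5409 myeloid cells (median 7354 UMIs, against 7655 in NK, 10470 in CD8 T, 6681.5 in Foxp3+ T and 5860 in other T cells before thinning). At 2000 UMIs per cell, 3.35% of myeloid cells held *Gzma*, 2.72% *Gzmb*, 4.08% *Gzmc*, 0.721% *Prf1*, 3.92% *Nkg7* and 0.835% *Ifng*. The shares of *Gzma* and *Gzmc* in Foxp3+ T cells, at 4.31% ± 3.43 and 4.47% ± 3.20 (SD, n = 8), and of *Gzmc* in CD8 T cells were within 1 SD of that background. These shares are not read as expression, but the SD is the spread between mice, and a difference from background was not tested. The mean levels lay above the myeloid ones, with *Gzma* at 113 CPM in Foxp3+ T against 18.6 in myeloid cells. *Gzmc* was at 98.6 in Foxp3+ T and 89.9 in CD8 T against 22.7 in myeloid cells. A single cell held 70.9% of the *Gzma* and another or the same 66.2% of the *Gzmc* UMIs of Foxp3+ T cells, and 1 held 43.9% of *Gzmc* in CD8 T cells. Whether such cells express these genes was not tested. *Prf1* in Foxp3+ T cells had a share of 4.22% ± 3.68 and a mean level of 28.8 CPM, against 3.94 CPM in myeloid cells. Whether it is expressed there at a low level was not tested. Without thinning, the myeloid share was 11.0% for *Gzma* and 8.91% for *Gzmb*, against 81.0% and 86.9% in NK and 19.7% and 57.6% in CD8 T cells.

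**Figure D1:**
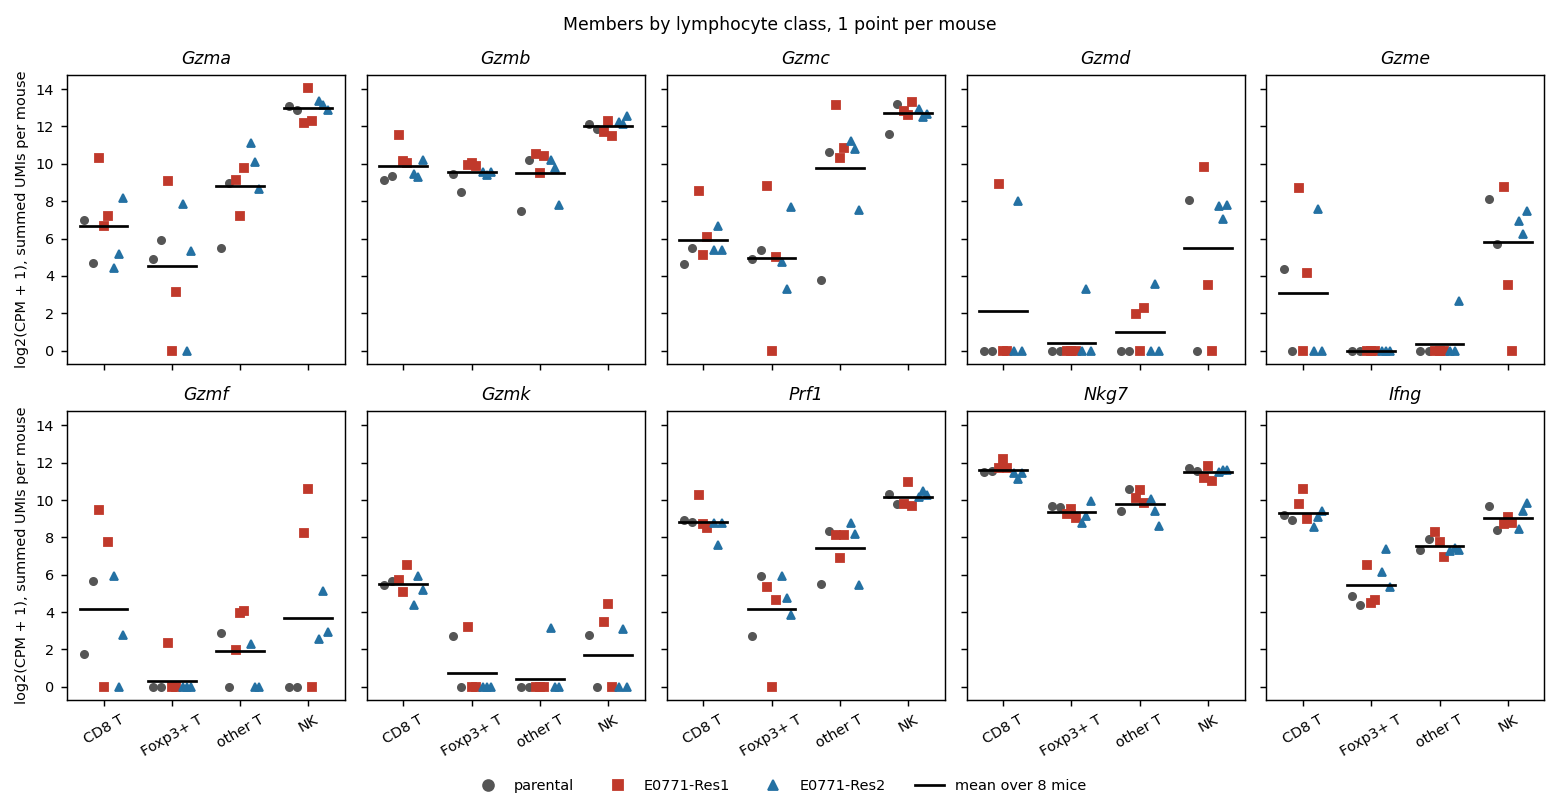
Level of each of the 10 genes as log2(CPM + 1) in CD8 T, Foxp3+ T, other T and NK cells, with 1 point per mouse (n = 8) colored by tumor line and a bar at the mean. *Gzma* and *Gzmc* of NK cells lie above every CD8 T and Foxp3+ T point, whereas the *Nkg7* and *Ifng* points of CD8 T and NK cells share 1 range.

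Perforin separated Foxp3+ T cells from both cytotoxic classes. *Prf1* ran from 836 CPM through 1187 to 2014 in NK cells, from 195 through 439 to 1228 in CD8 T cells, from 42.2 through 280.4 to 435 in other T cells and from 0 through 25.0 to 60.4 in Foxp3+ T cells. CD8 T cells exceeded Foxp3+ T cells by 4.18 ± 0.45 on the log2 scale (adjusted p = 8.18e-09). Of the 7 members tested in that comparison, 4 were higher in CD8 T cells (*Gzme*, *Prf1*, *Nkg7* and *Ifng*) and none lower, beside 11.8% of all genes called and 5.72% called higher. The *Gzme* call was lost by DESeq2 (adjusted p = 0.168), and its share of positive cells gave an adjusted p of 0.170 (exact permutation test). *Gzme* had 0 UMIs in Foxp3+ T cells, so it passed the filter on low counts only through the classes where it was high. NK exceeded CD8 T cells by 1.38 ± 0.28 (adjusted p = 0.0006). The share of *Prf1*-positive cells was 65.6% ± 6.02 in NK, 34.9% ± 7.20 in CD8 T, 12.2% ± 3.95 in other T and 4.22% ± 3.68 in Foxp3+ T cells. Before thinning, 93 of the 168 Foxp3+ T cells held *Gzmb*, and 12 of those 93 (12.9%) also held *Prf1*, whereas 92 of 114 *Gzmb*-positive CD8 T cells (80.7%) did.

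*Nkg7*, whose product sits in the granule membrane and aids release, had 2276, 2967 and 4651 CPM in CD8 T cells and 2070.3, 3069.6 and 3638 in NK cells. The groups overlapped almost fully, and the log2 fold change was 0.00 (adjusted p = 0.998). Foxp3+ T cells (432, 668 and 974 CPM) and other T cells (385, 981 and 1544) lay below every CD8 T value, with log2 fold changes of CD8 T cells of 2.18 ± 0.18 and 1.69 ± 0.17 (adjusted p = 7.51e-12 and 8.62e-09). At matched depth *Nkg7* was held by 87.7% ± 6.98 of CD8 T and 88.9% ± 6.81 of NK cells, against 40.4% ± 11.8 of Foxp3+ T and 42.4% ± 8.19 of other T cells.

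The *Ifng* ranges of CD8 T and NK cells also overlapped, above those of the other classes. CD8 T cells held 383, 569 and 1528 CPM, NK cells 340.1, 499 and 929, other T cells 125, 165 and 312, and Foxp3+ T cells 20.1, 34.2 and 166. CD8 T and NK cells differed by -0.15 ± 0.21 on the log2 scale, as NK minus CD8 T (adjusted p = 0.79). CD8 T cells exceeded Foxp3+ T cells by 3.40 ± 0.29 and other T cells by 1.76 ± 0.23 (adjusted p = 1.75e-11 and 1.08e-06), and no other T or Foxp3+ T value reached the lowest of either cytotoxic class. The share of positive cells was 44.4% ± 9.78 in CD8 T and 40.9% ± 11.3 in NK cells, a difference of -3.46 points (exact permutation test, adjusted p = 0.614), and 17.2% ± 3.44 in other T and 7.50% ± 4.54 in Foxp3+ T cells.

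Among the remaining class pairs, 6 of 7 members were called between CD8 T and other T cells (16.2% of all genes, 7.32% higher and 8.85% lower), with *Gzma* and *Gzmc* lower in CD8 T cells and *Gzme* among those higher, a call lost by DESeq2 (adjusted p = 0.127). *Gzma* fell by 1.82 on the log2 scale there (adjusted p = 0.0229), a call that was lost under 9 of 19 alternatives, among them leaving out parental replicate 3, E0771-Res1 replicate 3, or E0771-Res2 replicate 1 or 2. *Prf1* was higher in CD8 than in other T cells by 1.14 ± 0.31 (adjusted p = 0.00966, and 0.0591 without E0771-Res1 replicate 1). Foxp3+ T cells were lower than other T cells in 4 of 7 members, *Gzma*, *Gzmc*, *Prf1* and *Ifng* (8.9% of all genes called, 4.72% lower). All 7 were higher in NK cells than in other T cells (10.9% called, 4.69% higher) and than in Foxp3+ T cells (15.4% called, 7.43% higher). Over Foxp3+ T cells the log2 fold changes were 6.88 for *Gzma*, 6.60 for *Gzmc*, 5.56 for *Prf1*, 3.26 for *Ifng*, 2.62 for *Gzmb* and 2.18 for *Nkg7*. *Gzme* had 1 UMI in other T and 0 in Foxp3+ T cells, so it passed the filter only through the NK and CD8 T sums. Its NK UMIs lay in 14 of 221 cells, with 81.6% in the top 5, so its calls against those classes rest on few cells. For the shares, 33 of the 60 tests had an adjusted p under 0.05.

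**Figure D2:**
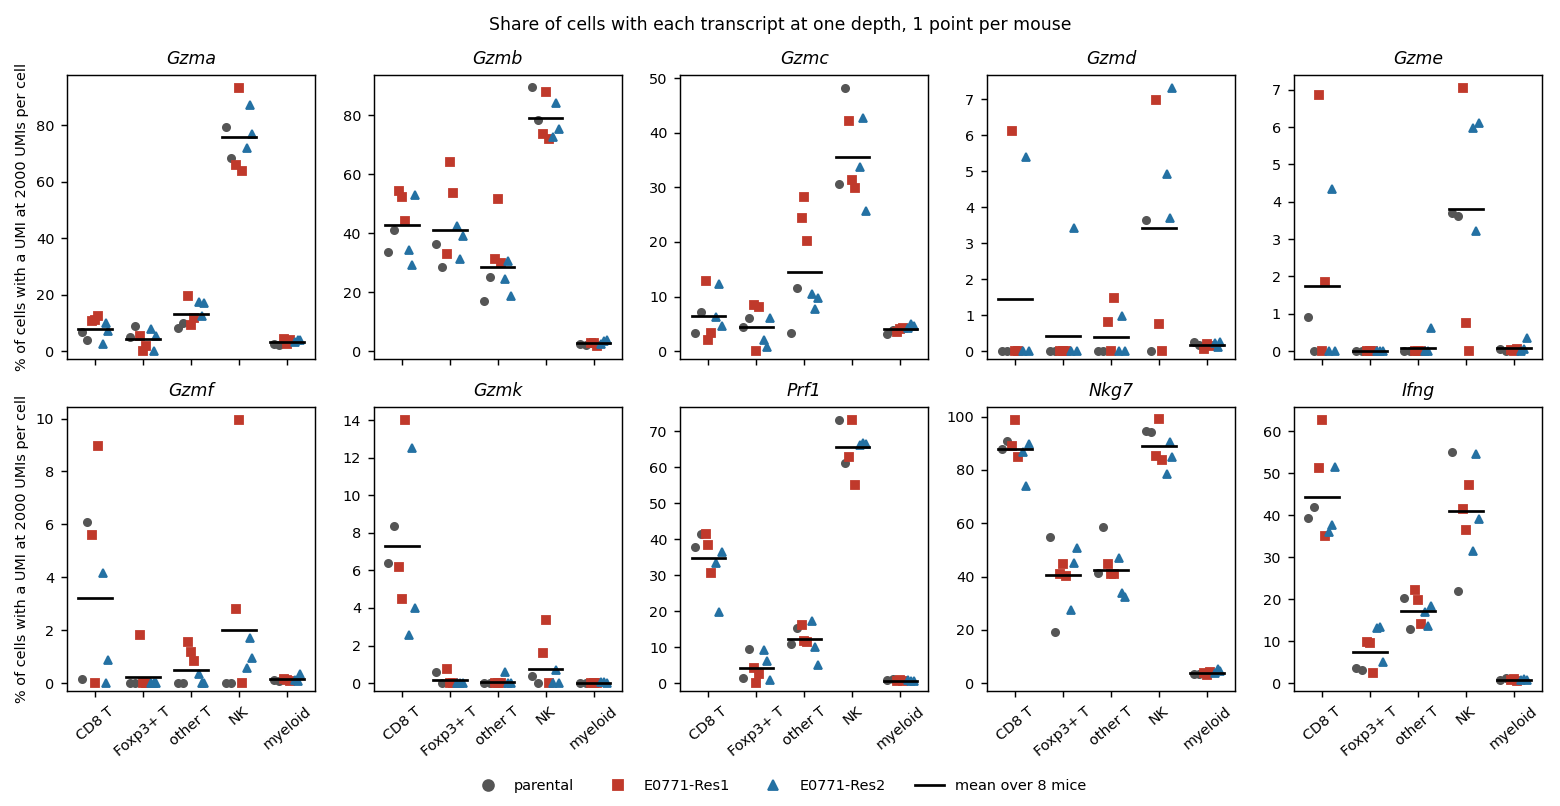
Expected percent of cells with at least 1 UMI after thinning to 2000 UMIs per cell, per mouse (n = 8), in the 4 lymphocyte classes and in myeloid cells as background. The *Gzmb* points of CD8 T and Foxp3+ T cells overlap, while in every mouse *Prf1* and *Ifng* were held by fewer Foxp3+ T than CD8 T cells.

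*Gzmk*, a granzyme of memory-like CD8 T cells, was the member whose UMIs lay mostly in CD8 T cells, which held 82 of its 134 UMIs (61.2%). Per mouse the level was 43.5 and 50.5 CPM in the parental mice, 50.8, 33.2 and 89.4 in those of E0771-Res1, and 20.1, 60.0 and 35.2 in those of E0771-Res2, so every mouse had some and the lines overlapped. Over all mice CD8 T cells held 51.1 CPM, NK cells 5.83 (9 UMIs, ratio 8.77, 95% interval 4.40 to 19.9), Foxp3+ T cells 2.92 (3 UMIs, ratio 17.5, 5.78 to 86.5) and other T cells 1.33 (2 UMIs, ratio 38.5, 10.3 to 323). These intervals cover counting error only. Without E0771-Res1 replicate 1 the ratio of *Gzmk* to Foxp3+ T cells was 39.8 (1 UMI there). Without E0771-Res2 replicate 1 other T cells had 0 UMIs, and CD8 T cells stood 21.8-fold above a limit of 3 counts, which again covers counting error only. Counted per cell at matched depth, 7.30% ± 4.09 of CD8 T and 0.0157% of myeloid cells were positive for *Gzmk*, with a difference of NK minus CD8 T cells of -6.56 points, and they exceeded Foxp3+ and other T cells by 7.14 and 7.23 points, each in 8 of 8 mice (exact permutation test, adjusted p = 0.0162). Before thinning, all 54 *Gzmk*-positive CD8 T cells also held *Nkg7*, 48 held *Ifng* (88.9%) and 46 held *Prf1* (85.2%). In CD8 T cells without *Gzmk* the shares were 91.7%, 66.0% and 61.8%, and cells with more UMIs give more of every pair.

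*Gzmd*, *Gzme* and *Gzmf* came from very few cells. A level of at least 5 UMIs of any of them was seen in 8 of 198 CD8 T cells and 14 of 221 NK cells, and in 0 of 168 Foxp3+ T and 0 of 253 other T cells. By mouse these were 1 and 1 CD8 T cells (parental), 3, 0 and 2 (E0771-Res1), and 0, 1 and 0 (E0771-Res2), and 1 and 1, then 4, 1 and 0, then 2, 3 and 2 NK cells in the same order. Such cells were thus found in every line.

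The 3 genes did not mark the same cells. All 4 CD8 T cells with 5 or more UMIs of *Gzmd* also had 5 or more of *Gzme*, as did 7 of 9 NK cells, whereas only 2 of the CD8 T cells and 1 of the NK cells had as many of *Gzmf*. These overlaps are uncertain, since UMIs may be exchanged between genes with shared 3′ stretches. *Gzmd* shared 22 of its 50-base stretches with *Gzmf* and 21 with *Gzme*, so the limit holds for both pairs. Whether UMIs were exchanged was not tested. Single cells carried much of each total: an NK cell of E0771-Res1 replicate 1 had 282 UMIs of *Gzmd* (54.8% of those in NK cells), 75 of *Gzme*, 407 of *Gzmc* and 1 of *Gzmf*. An NK cell of E0771-Res1 replicate 2 had 149 UMIs of *Gzmf*, 396 of *Gzmc* and 444 of *Gzma*, with 1 each of *Gzmd* and *Gzme*. A CD8 T cell of E0771-Res1 replicate 1 had 194 of *Gzmf*, 93 of *Gzmd*, 74 of *Gzme*, 226 of *Gzmb* and 98 of *Prf1*, and one of E0771-Res2 replicate 2 had 50 of *Gzmd* and 38 of *Gzme* with 0 of *Gzmf*. Of these 4 cells, 3 rich in *Gzmd* or *Gzmf* thus held at most 1 UMI of the other, and 1 held many of both. Other cells of E0771-Res1 replicate 1 also held both. A CD8 T cell had 62 UMIs of *Gzmf* and 12 of *Gzmd*, and an NK cell 116 and 9.

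Over each whole class, *Gzme* stood at 126 CPM in CD8 T cells (203 UMIs) and 190 CPM in NK cells (293 UMIs). Foxp3+ T cells had 0 UMIs. Against a limit of 3 counts over that class, CD8 T cells stood 43.3-fold and NK cells 64.9-fold higher. The limit treats UMIs as independent, whereas the *Gzme* UMIs lay in 7 of 198 CD8 T and 14 of 221 NK cells. A single positive cell can hold many UMIs, so these folds are not lower bounds. E0771-Res1 replicate 1 held 154 of the 203 and 169 of the 293 UMIs. Without it *Gzme* stood at 39.8 and 108 CPM, and the folds over the limit were 10.3 for CD8 T and 27.98 for NK cells. Other T cells had 1 UMI of *Gzme*, 4 of *Gzmd* and 8 of *Gzmf*, and Foxp3+ T cells 1 each of *Gzmd* and *Gzmf*. At matched depth 3.80% of NK and 0.0724% of myeloid cells held *Gzme*, and the NK share was 3.72 points above other T cells (7 of 8 mice, exact permutation test, adjusted p = 0.0293). That call was lost under 7 of 10 alternatives, each without 1 mouse (adjusted p up to 0.0586): either parental mouse, E0771-Res1 replicate 1 or 2, or any E0771-Res2 mouse.

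**Figure D3:**
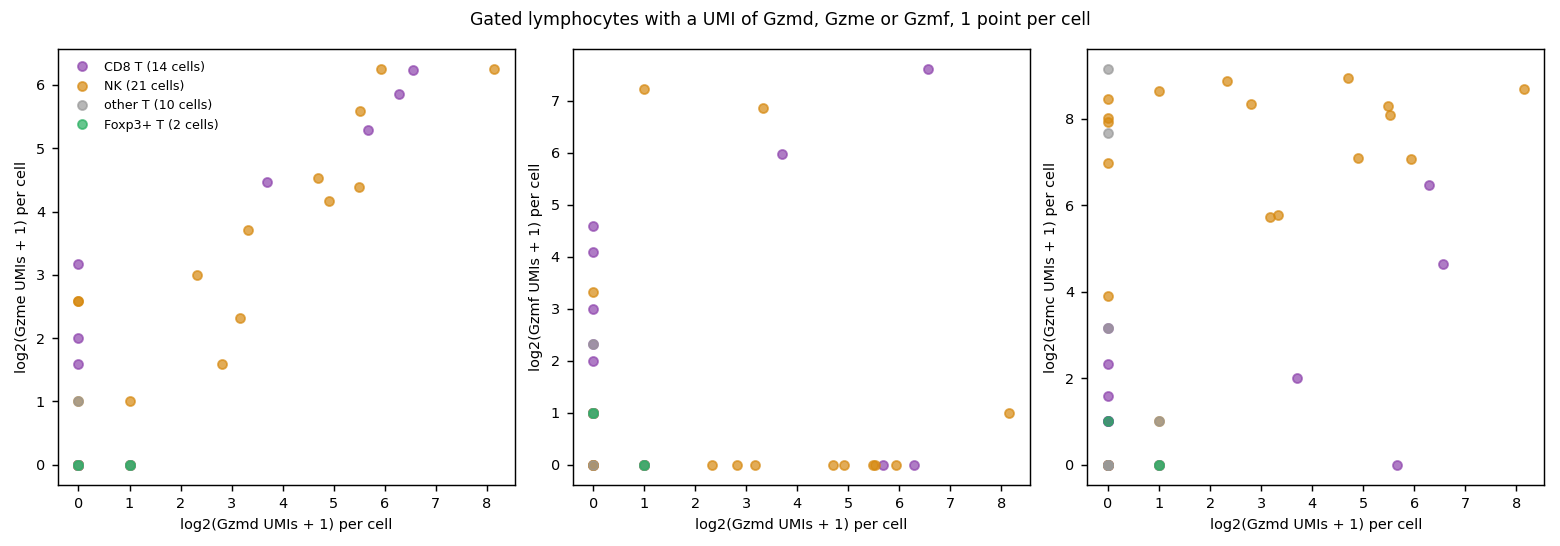
UMIs of *Gzmd* per cell against those of *Gzme*, *Gzmf* and *Gzmc*, as log2(UMIs + 1), in gated lymphocytes with any UMI of *Gzmd*, *Gzme* or *Gzmf*, colored by class. Cells rich in *Gzmd* lie along the diagonal for *Gzme*. For *Gzmf* most of them lie on the *Gzmd* axis, as in the CD8 T cell with 50 UMIs of *Gzmd* and 0 of *Gzmf*. The NK cell with 149 UMIs of *Gzmf* had 1 of *Gzmd*.

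The spread over cells differed among the members that NK and CD8 T cells share. In NK cells the median positive cell, in 3′ UMIs not scaled to length, held 49 UMIs of *Gzma*, 20.5 of *Gzmb*, 18 of *Nkg7*, 6 of *Prf1* and 3 of *Ifng*, and the UMIs of *Gzmc* were the most concentrated of these, with 12 cells holding at least 50% of them, against 57 cells for *Nkg7*. In CD8 T cells 13 cells held at least 50% of the *Gzmb* UMIs and 12 those of *Prf1*, against 50 for *Nkg7*. The members also occurred together: *Gzmb* was found in 171 of 179 *Gzma*-positive NK cells (95.5%), *Prf1* in 182 of 192 *Gzmb*-positive NK cells (94.8%), and *Ifng* in 115 of 135 *Prf1*-positive CD8 T cells (85.2%). *Prf1* was held by 51.2% of the CD8 T cells without *Gzmb*. These shares are not thinned, and cells with more UMIs give more of every pair. Among NK cells with *Gzmc* 30.4% held the proliferation marker *Mki67*, against 9.24% of those without.

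As a description over 32 sums (8 mice by 4 classes, which share libraries and depth), the non-member genes whose level followed *Gzma*, *Gzmb*, *Gzmk*, *Prf1*, *Nkg7* and *Ifng* most closely were as follows. The other 4 members were not compared in this way. *Gzma* was nearest to the NK receptor genes *Klra7* (Pearson r = 0.897) and *Klra4* (0.893), then *Car2* and the transcription factor gene *Eomes* (0.887). For *Gzmb* the nearest was *AW112010* (0.834), followed by *Id2* (0.825) and *Ctla2a* (0.821). *Gzmk* was nearest to the gate gene *Cd8a*, and next to *Cisd1* (0.774). *Prf1* was nearest to the NK gate gene *Klre1* (0.907) and to *Klrd1* (0.903). *Nkg7* followed *Ms4a4b* (0.912) and *Klrc1* (0.884), and *Ifng* followed *Klrd1* (0.934) and *Klrc1* (0.894), the partners of a lectin-like receptor on both NK and CD8 T cells. Among the members themselves *Gzmd* and *Gzme*, whose UMIs may be exchanged, had the highest correlation, at 0.942, and *Gzma* and *Gzmc* had one of 0.895. *Gzmd* and *Gzmf*, whose UMIs may be exchanged as well, had one of 0.366.

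Other genes of the same machinery were counted over whole lists. Of 16 genes for granule loading and release, 3 were higher and 1 lower in NK than in CD8 T cells (median log2 fold change 0.16, beside 7.61% of all genes called), with *Ctsw*, a protease of killer cells, at 0.84, *Stx7* at 0.87 and *Lyst*, which shapes lysosomes, at -0.80. Of the 4 serpins tested, which inhibit granzymes or related proteases, *Serpinb9b* (2.98), *Serpinb6b* (1.17) and *Serpinb9* (0.88), the granzyme B inhibitor, were higher in NK cells and *Serpinb6a* lower (-1.15). Of 10 further ligands and cytokines 3 were higher, the chemokine genes *Xcl1* (2.44), *Ccl4* (0.95) and *Ccl5* (0.87). Of 14 regulators 6 were higher and none lower, led by *Eomes* (3.15) and the interleukin-12 receptor genes *Il12rb1* (1.52) and *Il12rb2* (1.14). Of 7 genes of interferon gamma reception and signaling, *Ifngr1*, the ligand-binding receptor chain, was higher (0.82).

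Between CD8 T and Foxp3+ T cells, where 11.8% of all genes were called, the ligand list had 5 of 10 genes higher, led by *Xcl1* (3.62), the death ligand gene *Fasl* (2.55) and *Ccl3* (1.75), and 1 lower, the suppressive cytokine gene *Il10* (-3.04). The granule list split evenly, with *Ctsw* (2.48) and *Lyst* (0.94) higher and *Stx11* (-1.24) and *Srgn* (-0.63), the proteoglycan that binds granzymes, lower in CD8 T cells. *Serpinb9* (1.72) and *Serpinb6b* (1.10) were higher. Of the 14 regulators 6 were higher, among them *Il18rap* (1.92) and *Tcf7* (1.70), and 3 lower, among them *Il12rb1* (-1.54) and *Prdm1* (-1.49). Of the interferon gamma signaling genes, the kinase gene *Jak2* (-0.94) and *Ifngr1* (-0.60) were lower in CD8 T cells.

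The comparison of tumor lines asked whether the cytotoxic genes differed in tumors of the resistant lines. Within the 4 classes 12 comparisons of lines were made. No member that passed the filter on low counts had an adjusted p under 0.05 in any of them by edgeR, nor by DESeq2. Members under the filter were not tested. Among them were *Gzmd*, *Gzme*, *Gzmf* and *Gzmk* in Foxp3+ T (0 to 3 UMIs) and other T cells (1 to 8), and *Gzmk* in NK cells (9). The background was as sparse: 0% of 6515 genes tested in CD8 T, 6797 in other T and 6244 in NK cells were called, and 0%, 0.0186% and 0.0373% of 5369 in the comparisons of Foxp3+ T cells. At an unadjusted p under 0.05 the edgeR test counted 218 to 343 genes per comparison in CD8 T and 256 to 321 in NK cells. Shares of positive cells gave 0 calls in 160 exact permutation tests, where the smallest p seen was 0.1. The smallest p these tests can give was 0.0357 for 2 against 6 mice and 0.1 for each pair of lines. Adjusted over 160 tests none could fall under 0.05, so the 0 calls cannot tell whether the lines differed.

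In CD8 T cells the highest *Gzmb*, *Prf1* and *Gzma* levels came from 1 mouse. *Gzmb* stood at 551 and 644 CPM in the parental mice, 2938, 1146 and 1050.4 in those of E0771-Res1, and 705, 635 and 1162 in those of E0771-Res2, so the 3 E0771-Res1 mice lay above both parental mice. The log2 fold change of E0771-Res1 over parental was 1.60 ± 0.37 (unadjusted p = 0.000325, adjusted p = 0.285), beside 0% of genes called. The order did not rest on E0771-Res1 replicate 1 alone, since the other 2 mice of the line also exceeded 644. E0771-Res2 minus parental was 0.51 ± 0.37 for *Gzmb*, and E0771-Res2 minus E0771-Res1 was -1.08 ± 0.32 (adjusted p = 0.52).

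*Gzma* in CD8 T cells was 128 and 25.3 CPM in the parental mice, 1247, 99.7 and 145 in those of E0771-Res1, and 20.1, 35.0 and 282 in those of E0771-Res2, where the lines overlapped apart from 1 mouse. A single CD8 T cell held 54.7% of the *Gzma* UMIs of that class. *Prf1* was 481 and 449 CPM in the parental mice, 1228, 415 and 369 in those of E0771-Res1, and 443, 195 and 434 in those of E0771-Res2. The E0771-Res1 mice lay on both sides of the parental values and the E0771-Res2 mice below both, with log2 fold changes over parental of 0.65 ± 0.40 and -0.44 ± 0.42 for *Prf1*.

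*Nkg7* in CD8 T cells was 2871 and 3064 CPM in the parental mice, 3363, 4651 and 3425 in those of E0771-Res1, and 2839.7, 2276 and 2782 in those of E0771-Res2. The lines did not overlap, with E0771-Res1 above and E0771-Res2 below the parental mice, by 0.39 ± 0.21 and -0.18 ± 0.20 on the log2 scale. Between the resistant lines the log2 fold change was -0.57 ± 0.19 (edgeR, unadjusted p = 0.00581, adjusted p = 0.621), beside 0% of genes called. How many of all genes tested separated the lines in such ways was not counted, for this or any other member. *Ifng* was 582 and 493 CPM in the parental mice, 880.2, 1528 and 508 in those of E0771-Res1, and 383, 555 and 675 in those of E0771-Res2, where all lines overlapped. Its log2 fold changes over parental were 0.82 ± 0.33 (adjusted p = 1.00) and 0.05 ± 0.33.

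In NK cells no member was called between lines. *Gzmb* was 4421 and 3699.9 CPM in the parental mice, 3321, 4943 and 2832 in those of E0771-Res1, and 4812, 4485 and 5961 in those of E0771-Res2, and E0771-Res2 minus E0771-Res1 was 0.54 ± 0.19 (unadjusted p = 0.0119, adjusted p = 1.00). *Gzma* was 8624 and 7616 CPM in the parental mice, 4647, 17284 and 5001 in those of E0771-Res1, and 10478, 9091 and 7605 in those of E0771-Res2, where the E0771-Res1 mice held both the lowest and the highest value. *Ifng* was 816 and 340.1, then 418, 555 and 442, then 352, 679 and 929 CPM in the same order, and the 2 parental mice alone spanned most of the range. The log2 fold changes over parental were 0.16 ± 0.30 for *Prf1* in E0771-Res1 and 0.24 ± 0.37 for *Gzma* in E0771-Res2 tumors. *Gzmf* in NK cells was 0 CPM in both parental mice, 299, 1541 and 0 in those of E0771-Res1, and 4.82, 34.0 and 6.68 in those of E0771-Res2, so that 2 E0771-Res1 mice lay above all others and the third at 0. E0771-Res2 minus E0771-Res1 was -4.86 ± 1.12 on the log2 scale for *Gzmf* (unadjusted p = 0.000497, adjusted p = 0.856), and without E0771-Res1 replicate 3 the adjusted p was 0.00298. Of the 268 *Gzmf* UMIs in E0771-Res1 NK cells, 1 cell of replicate 1 held 116 and 1 cell of replicate 2 held 149. The mouse left out was the one at 0 CPM, so the lower adjusted p rests on these 2 cells and is not read as a difference between lines.

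**Figure D4:**
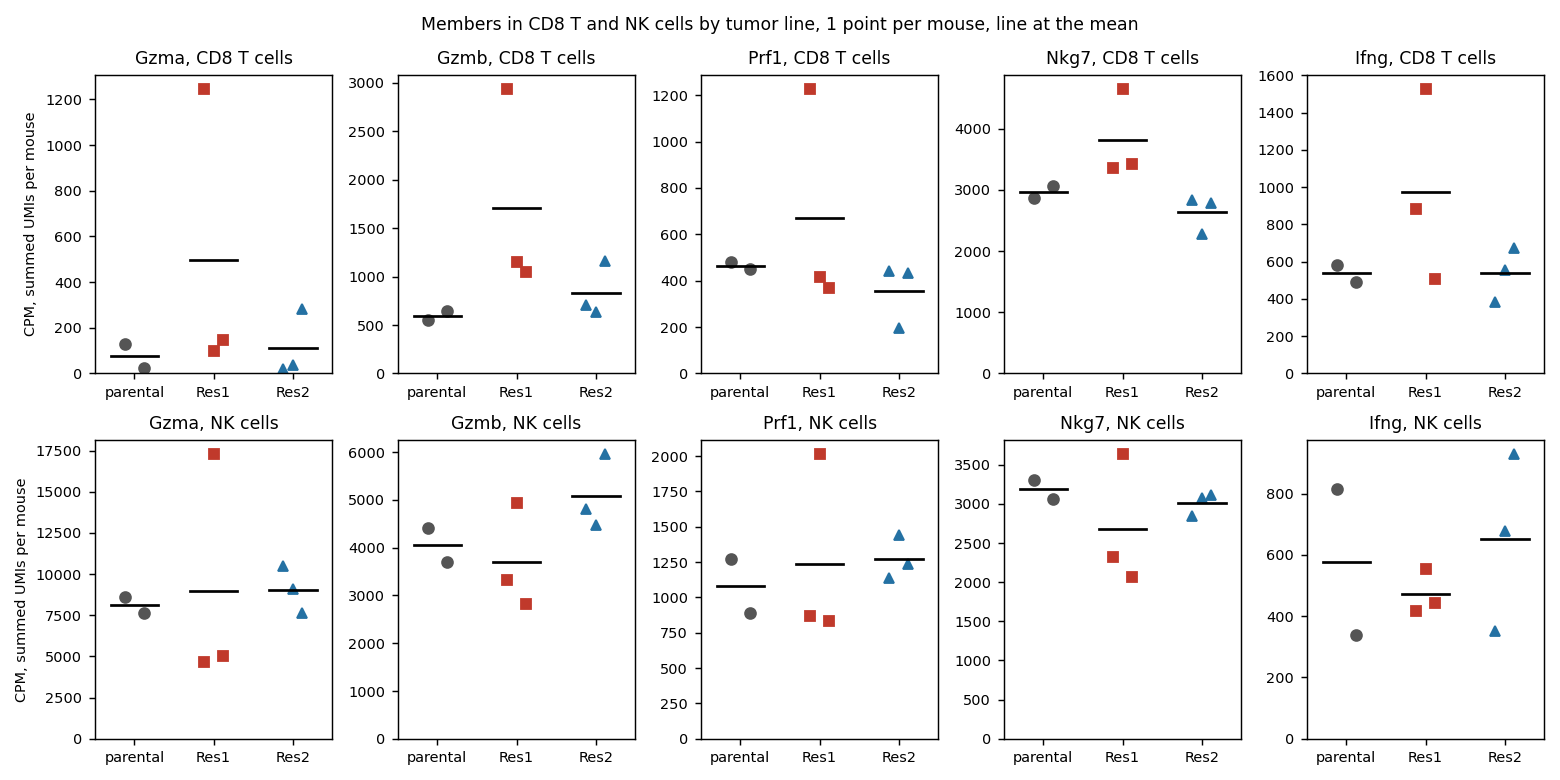
CPM of *Gzma*, *Gzmb*, *Prf1*, *Nkg7* and *Ifng* per mouse in CD8 T cells and in NK cells, by tumor line (2 parental, 3 E0771-Res1 and 3 E0771-Res2 mice), with a bar at the mean. In CD8 T cells 1 E0771-Res1 mouse is highest for *Gzma*, *Gzmb* and *Prf1*, and for *Nkg7* the 3 E0771-Res1 mice (3363 to 4651) lie above the rest.

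Foxp3+ T cells held *Gzmb* at 705 and 362 CPM in the parental mice, 970.1, 1049.9 and 930.1 in those of E0771-Res1, and 751, 682 and 767 in those of E0771-Res2. The E0771-Res1 mice lay above all others, by 0.78 ± 0.26 over parental (unadjusted p = 0.0059, adjusted p = 0.871). In other T cells *Gzma* was 44.4 and 503 CPM in the parental mice, 559, 145 and 878 in those of E0771-Res1, and 2206, 1109 and 406 in those of E0771-Res2, and the lines overlapped (E0771-Res2 over parental 2.63 ± 0.82, adjusted p = 0.978).

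The number of CD8 T cells limits all of these values. They made up 4.55% and 2.81% of kept cells in the parental mice, 2.38%, 1.66% and 2.24% in those of E0771-Res1, and 0.489%, 1.59% and 0.918% in those of E0771-Res2, so both parental values lay above all 6 resistant ones. The mean was 3.68% ± 1.23 (SD, n = 2) in parental and 1.54% ± 0.73 (n = 6) in resistant tumors, with an exact permutation p of 0.0357 over 28 splits, the smallest they can give, and an adjusted p of 0.143 over the 4 classes. For Foxp3+ T, other T and NK cells the adjusted p was 0.607.

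Summed over all kept CD45+ cells, where fewer cells of a type and less RNA per cell cannot be told apart, 2 calls were made among the members. In this fit 0.0328% of 12208 genes were called for E0771-Res1 minus parental, 4.26% for E0771-Res2 minus parental (2.36% lower) and 4.06% for E0771-Res2 minus E0771-Res1 (1.84% lower). *Nkg7* was 350.0 and 264 CPM in the parental mice, 248, 230.4 and 257 in those of E0771-Res1, and 156, 246 and 181 in those of E0771-Res2. The E0771-Res2 mice lay below both parental mice, with a log2 fold change of -0.69 ± 0.15 (adjusted p = 0.0275), and the call was lost without either parental mouse, without E0771-Res2 replicate 1 or without its replicate 3 (adjusted p up to 0.285). Cells with *Nkg7* numbered 266 of 1122 and 120 of 605 in the parental and 309 of 1842, 294 of 1514 and 302 of 1961 in the E0771-Res2 mice. The share of CD8 T cells, given above, moved the same way, and within CD8 T cells the log2 fold change was -0.18 ± 0.20. NK cells averaged 2.52% of kept cells in parental and 1.76% in E0771-Res2 mice, with overlapping ranges. Of the *Nkg7* UMIs of all kept cells, CD8 T cells held 31.4%, NK cells 27.9% and cells placed in no gate 19.3%. The part of each in the *Nkg7* call was not tested.

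*Gzmf* was 1.01 and 2.49 CPM in the parental mice, 26.9, 36.0 and 7.44 in those of E0771-Res1, and 1.33, 1.62 and 1.61 in those of E0771-Res2. Every E0771-Res1 mouse lay above all others, and E0771-Res2 minus E0771-Res1 was -3.94 ± 0.49 on the log2 scale (adjusted p = 0.0014), which kept its call in all 16 alternatives (log2 fold changes of -4.35 to -2.98). E0771-Res1 minus parental was 3.90 ± 0.65 (adjusted p = 0.0736). The UMIs came from very few cells: 3 cells of each E0771-Res1 mouse held 372 of 394, 151 of 153 and 43 of 46 of its *Gzmf* UMIs. Positive cells were 19 of 2020, 5 of 604 and 6 of 937 in E0771-Res1, 12 of 1842, 4 of 1514 and 15 of 1961 in E0771-Res2, and 7 of 1122 and 4 of 605 in parental mice. Counted as cells rather than as UMIs, the resistant lines overlapped.

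The other members gave no call in this fit. *Gzmb* was 189 and 153 CPM in the parental mice, 264, 194 and 224 in those of E0771-Res1, and 166, 232 and 164 in those of E0771-Res2, with the 3 E0771-Res1 mice above both parental mice (E0771-Res1 minus parental 0.41 ± 0.15, adjusted p = 0.368). *Ifng* was 64.7 and 37.6, then 58.1, 47.1 and 41.4, then 21.7, 51.4 and 40.9 CPM, and E0771-Res2 minus parental was -0.50 ± 0.28 (adjusted p = 0.356). *Gzmd* was 6.45 and 1.49, then 37.8, 1.18 and 0.971, then 5.13, 11.7 and 4.62 CPM, and 1 mouse held most of the E0771-Res1 level. *Gzma*, *Gzmc*, *Gzme*, *Gzmk* and *Prf1* overlapped between the lines, with *Gzmk* at 3.92 and 1.99 CPM in parental and 0.442, 1.99 and 1.61 in E0771-Res2 tumors (-1.30 ± 0.56, adjusted p = 0.22).

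**Figure D5:**
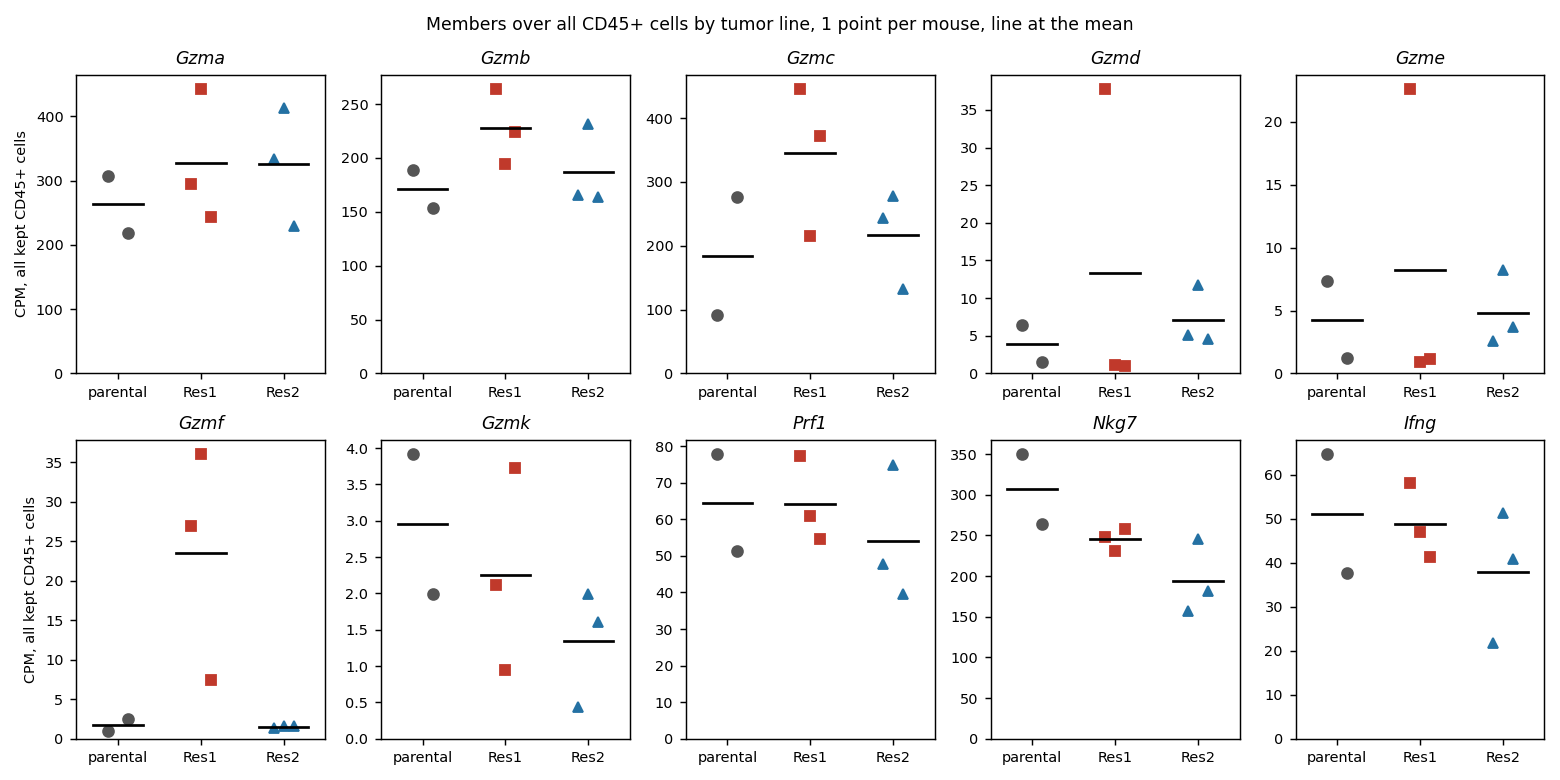
CPM of the 10 genes summed over all kept CD45+ cells of each mouse, by tumor line, with a bar at the mean. *Gzmf* of the 3 E0771-Res1 mice (7.44 to 36.0) lies above all other mice, and *Nkg7* of the E0771-Res2 mice (156 to 246) lies below both parental mice.

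Genes that respond to or transmit interferon gamma were also counted in all 10605 kept CD45+ cells, of which 5409 passed the myeloid gate. These sums do not tell fewer cells of a type from less RNA per cell. CD8 T cells averaged 3.68% of kept cells in parental and 0.997% in E0771-Res2 mice. For E0771-Res2 minus parental 4.26% of all genes were called. There the transcription factor gene *Irf1* (-0.72, adjusted p = 0.0494) and *Jak2* (-0.59) were lower, and no gene of the list was higher. Of 14 regulators *Runx3* (-0.88), *Il18rap* (-0.82) and *Il2rb* (-0.59) were lower and *Id2* (0.46) higher. *Ctsc*, whose protease activates granzymes, fell by 0.54, and *Serpinb9* by 0.47, on the log2 scale. For E0771-Res1 minus parental no gene of any list was called, nor was any in the comparisons of lines within a class. For E0771-Res2 minus E0771-Res1, where 4.06% of all genes were called, *Ctsc* (-0.48) and *Runx3* (-0.60) were lower and *Lyst* (0.44, adjusted p = 0.0436) higher.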

How the data were processed

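Single-cell 3′ expression of CD45+ cells was measured in 8 mice (2 parental, 3 E0771-Res1, 3 E0771-Res2). Per the labels and methods, the authors used Cell Ranger 6.1.2 and a mm10 genome, and deposited a table of raw UMI counts by gene and cell per mouse, without normalization. In their methods, cells with 500 to 6000 genes and under 10% mitochondrial content passed and genes of mitochondria, of ribosomes or with a Gm prefix were left out, as was done here. The 9 tag features stayed out of all totals. No barcode was shared by mice, and replicates differed beyond sampling noise.

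Gates used raw UMIs. T cells had at least 2 UMIs of *Cd3d*, *Cd3e* and *Cd3g*. CD8 T cells also had *Cd8a* or *Cd8b1* and neither *Foxp3* nor *Cd4*, Foxp3+ T cells had *Foxp3* and no *Cd8a* or *Cd8b1*, and other T cells were the rest without *Foxp3* or *Cd8*. NK cells had at least 2 UMIs of *Ncr1*, *Klrb1c* and *Klre1* and under 2 of the *Cd3* genes. All needed under 1% of UMIs in *Lyz2*, *Csf1r*, *Cd68*, *C1qa*, *C1qb*, *C1qc*, *Apoe* and *Ctss*, and myeloid cells at least 1%.

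Counts were summed per mouse and class (at least 5 cells) and tested with edgeR 4.0.16 (TMM, filterByExpr with a count minimum of 5 and a total of 15, quasi-likelihood F test, Benjamini-Hochberg, threshold 0.05), with DESeq2 1.42.0 as an alternative. The model between classes had mouse as a block, and lines were compared in 1 model per class. Steps were tested on simulated data. Expected shares after thinning to 2000 UMIs were computed exactly, and 5 CD8 T, 6 Foxp3+ T, 24 other T and 6 NK cells with fewer UMIs were left out. Nearest genes were taken among 5809 genes by Pearson r of log2 CPM. Mice are separate animals, while a line is 1 derived line. The 10 genes were named whatever their values, and companion genes were named from fixed lists where their adjusted p was under 0.05, at most the 4 with the largest change. The genes and lists were chosen with earlier results of these data known. The result of 1 listed companion gene is not reported here.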

Additional observations from a re-analysis of the deposited data

Results flagged for a closer look

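One result differed in direction between the resistant lines. The *Nkg7* level of NK cells minus that of CD8 T cells was below 0 in each E0771-Res1 mouse and above 0 in each E0771-Res2 mouse, with mean differences of -1137 and 383.4 CPM (a gap of -1520 CPM). It was picked out from the comparisons of members between classes for its pattern of signs. How often such a split arises by chance was not tested, nor was the difference between the lines. The CD8 T values rest on as few as 10 cells in an E0771-Res1 mouse and 9 in an E0771-Res2 mouse.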

How the results depend on the processing

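The 32 calls among the members between lymphocyte classes came to 27 to 37 when each mouse was left out in turn and to 30 by DESeq2. Of the 33 calls on shares of positive cells, 29 to 31 were made without a mouse, 34 at 1000 UMIs per cell and 27 without thinning. Between lines within a class the 0 calls became 26 with no filter on low counts, 7 with the replicate number as a block and 3 with myeloid genes under 0.5% (chosen after seeing the data), and 0 to 2 without a mouse, where leaving out E0771-Res1 replicate 2 or 3 gave 2. In all CD45+ cells the 2 calls became 7 with no filter, 3 with the replicate block and 1 to 4 without a mouse. The shares of all genes called under these alternatives are not given here, so the counts are not read as a trait of the members. *Gzmd* in E0771-Res2 minus E0771-Res1 (log2 fold change -1.24, adjusted p = 0.433) ranged from -1.73 to 2.66 without a mouse, and it reversed, at 2.66 (adjusted p = 0.0402), without E0771-Res1 replicate 1, which held most of its UMIs. The causes of the other changes were not tested. The replicate numbers were not read as pairs, since the mice are separate animals. Deviations of mice with the same number correlated at -0.137 to 0.246, against -0.281 to 0.137 for other pairs. These ranges cannot decide on a pairing, since the deviations of 2 parental mice from their mean mirror each other. Between the resistant lines the same-number values were 0.18, 0.041 and 0.246, against -0.281 to 0.084 for other pairs. Few CD8 T cells per mouse (9 in the smallest) limit every comparison of lines.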
